A study of Caenorhabditis elegans with 12 samples.

Results

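The FMRFamide-like peptide (flp) genes and the neuropeptide-like protein (nlp) genes of the nematode Caenorhabditis elegans were compared between animals given tetrathiomolybdate (TM) and controls given dimethyl sulfoxide (DMSO), the solvent. Members were taken by name: every gene called flp or nlp with a number, except nlp-27 to nlp-34, which include a cluster of epidermal antimicrobial peptide genes. This gave 96 of the 24238 genes in the deposited table, 30 flp and 66 nlp. The series holds 12 libraries of poly(A) RNA from whole animals of N2, the wild-type strain, 6 per group, and asks how TM, a molybdenum-sulfur compound that binds copper, alters the transcriptome. Treatment with TM lasted 4 days. Stage, dose and number of animals are not stated in the labels. Whether replicates came from separate cultures is not stated either, so p-values reflect the scatter of these libraries alone, and it could be technical. Levels are mean FPKM (fragments per kilobase of transcript, scaled to library depth) ± SD over the 6 libraries of a group. Changes are log2 of TM over DMSO ± SE from edgeR's quasi-likelihood model on the counts, with Benjamini-Hochberg adjusted p over all tested genes and a threshold of 0.05.

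Neuropeptide genes encode precursors that enter the secretory pathway of neurons and of some gut, epidermal and muscle cells. The proprotein convertase EGL-3 cuts a precursor after basic residues, the carboxypeptidase EGL-21 trims the ends, and many peptides, above all those ending in RFamide, receive a C-terminal amide from enzymes of which the first is a copper-dependent monooxygenase. The finished peptides are stored in dense core vesicles and act mostly on G protein-coupled receptors. In C. elegans they set locomotion, feeding, egg laying, sleep-like states and fat storage.

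As whole-series context, total counts ran from 61432401 to 67068328 per library, and the first principal component separated the groups with 73% of the variance. DMSO replicate 6 lay at -8.2 on it, between the other DMSO libraries (-58.9 to -39.7) and the TM libraries (38.3 to 54.9), and on the second component TM replicate 5 stood apart at -39.3, with the rest of its group at 9.01 to 15.5. DMSO replicates 2 and 6 lay toward TM replicate 5 there, at -19.3 and -28.9. Calls that ended without DMSO replicates 2 and 6 and TM replicate 5 together are named beside the gene. Those libraries stood apart in these same data, so the fit without them is not an independent check. Among tested markers, all 8 of sperm and all 11 of body wall muscle were higher in TM, 7 of 12 of the epidermis and seam were higher and 1 lower, 8 of 10 of the pharynx were higher and 1 lower, and 8 of 11 of oocytes and germline were lower with 0 higher. Intestinal markers were split, with 2 of 9 higher and 2 lower, and of 6 glia and coelomocyte markers 1 was tested and did not pass. Beside these counts, 23.7% of all tested genes were higher and 16% lower.

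The neuropeptide genes were mostly scarce transcripts of short genes. The condition for testing, an average of 1 FPKM or more across the 12 libraries, was met by 76 of the 96 genes, all 30 flp and 46 of the 66 nlp. Of the 96, 2 had a mean of at least 100 FPKM, 20 lay between 10 and 100, 54 between 1 and 10, and 20 below 1. The median level of the 76 tested genes was 4.59 FPKM, against 15.99 FPKM over all 11535 tested genes. The most abundant were nlp-77 at 419.7 FPKM and nlp-40 at 221 FPKM over the 12 libraries, followed by nlp-24 (38.6), nlp-36 (38.2), nlp-49 (36.8), flp-28 (31.1), flp-9 (24.03), flp-1 (21.1), nlp-20 (17.6) and flp-11 (16.1 FPKM). Together nlp-77 and nlp-40 held 51.7% to 53.5% of the summed FPKM of all 96 genes in the DMSO libraries and 48.0% to 52.6% in the TM libraries. The spread between replicates was wider than for most genes, with a median coefficient of variation of 18.7% in DMSO and 16.9% in TM, against 11.9% and 14.1% over all tested genes.

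The encoded precursors were short, with a median of 93 residues and a range from 64 for nlp-51 to 326 for nlp-16, against a median of 364 residues over all tested genes. Summed exons had a median of 599.5 bases, against 1368 bases over all tested genes. The X chromosome held 30 of the 96 genes (31.2%), where it held 14.4% of the genes in the table. Chromosomes I to V held 10, 14, 11, 15 and 16. The table's ontology column assigned 83 of the 96 to neuropeptide signalling. It lacked that term for nlp-77, which current RefSeq lists as srlf-1, and 3 others carry new names there (nlp-38 as mihp-1, nlp-42 as mihp-2 and nlp-73 as ctdh-1). Of the 96 genes, 29 overlap a gene on the opposite strand and 5 one on the same strand. The libraries preserve strand, but whether the counting used it is not given, so reads of overlapping genes may be shared.

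With TM, 18 of the 76 tested neuropeptide genes rose and 1, nlp-51, fell. Over all 11535 tested genes 23.7% were called higher and 16% lower, 39.8% in either direction, so the share of neuropeptide genes called higher, 23.7%, equalled the background, and the share called lower was 1.32%. The rises were small: the folds of the 18 ran from 1.26 to 2.69, and their median change was 0.45, against 0.75 for all genes called higher. Estimates above 0 were found for 69 of the 76, and their median change was 0.30, against -0.01 over all tested genes, of which 48.9% lay above 0. Of the 57 that did not pass, 51 had estimates above 0, and they ran from -0.21 to 0.57. By family, 5 of 30 flp genes rose and 0 fell (10 with an unadjusted p under 0.05), with a median change of 0.26, and 13 of 46 tested nlp genes rose and 1 fell, with a median of 0.33. The difference between the families was not tested. The groups of 6 and 6 did not overlap for 6 genes, all higher in TM, where 16.1% of all tested genes did not overlap in that direction and 6.41% in the other. With a filter of 10 mean counts in place of 1 FPKM, 11 of 89 neuropeptide genes rose, against a background of 23.3%. The calls of flp-5, flp-21, nlp-10, nlp-15, nlp-18, nlp-21, nlp-38 and nlp-41 were lost there and nlp-4 was added.

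Because 4 tested genes (nlp-26, nlp-41, nlp-64 and nlp-67) reached the 1 FPKM mean only through TM, the whole set was also read without that filter. Of all 96 genes 84 then had estimates above 0, with a median change of 0.30 where the median of all 24238 genes was 0.10, and 13 rose and 1 fell, against a background of 15.5% higher and 7.78% lower. The count of risen genes depended on single libraries. It was 11 without DMSO replicate 1, 11 without DMSO replicate 3, 10 without DMSO replicate 4, 10 without TM replicate 1 and 11 without TM replicate 5. Without DMSO replicates 2 and 6 and TM replicate 5 together 25 rose and 0 fell, against 30.5% and 24.6% of all tested genes. Over all tested genes the share called higher was 21.4%, 21.3%, 21.4%, 21.6% and 25.6% in the 5 fits without 1 library, in the order given, and 23% without DMSO replicate 2, where 15 neuropeptide genes rose. Without DMSO replicate 6 that share was 24.9%, and 24 neuropeptide genes rose. In the remaining fits without 1 library 13 to 17 rose, with shares of 21.7% to 22.6%. The count of fallen genes was 0 without any 1 of DMSO replicates 2, 3, 5 and 6 and TM replicates 1, 3, 4 and 6. It was 2 without TM replicate 5, nlp-40 and nlp-51.

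**Figure D1:**
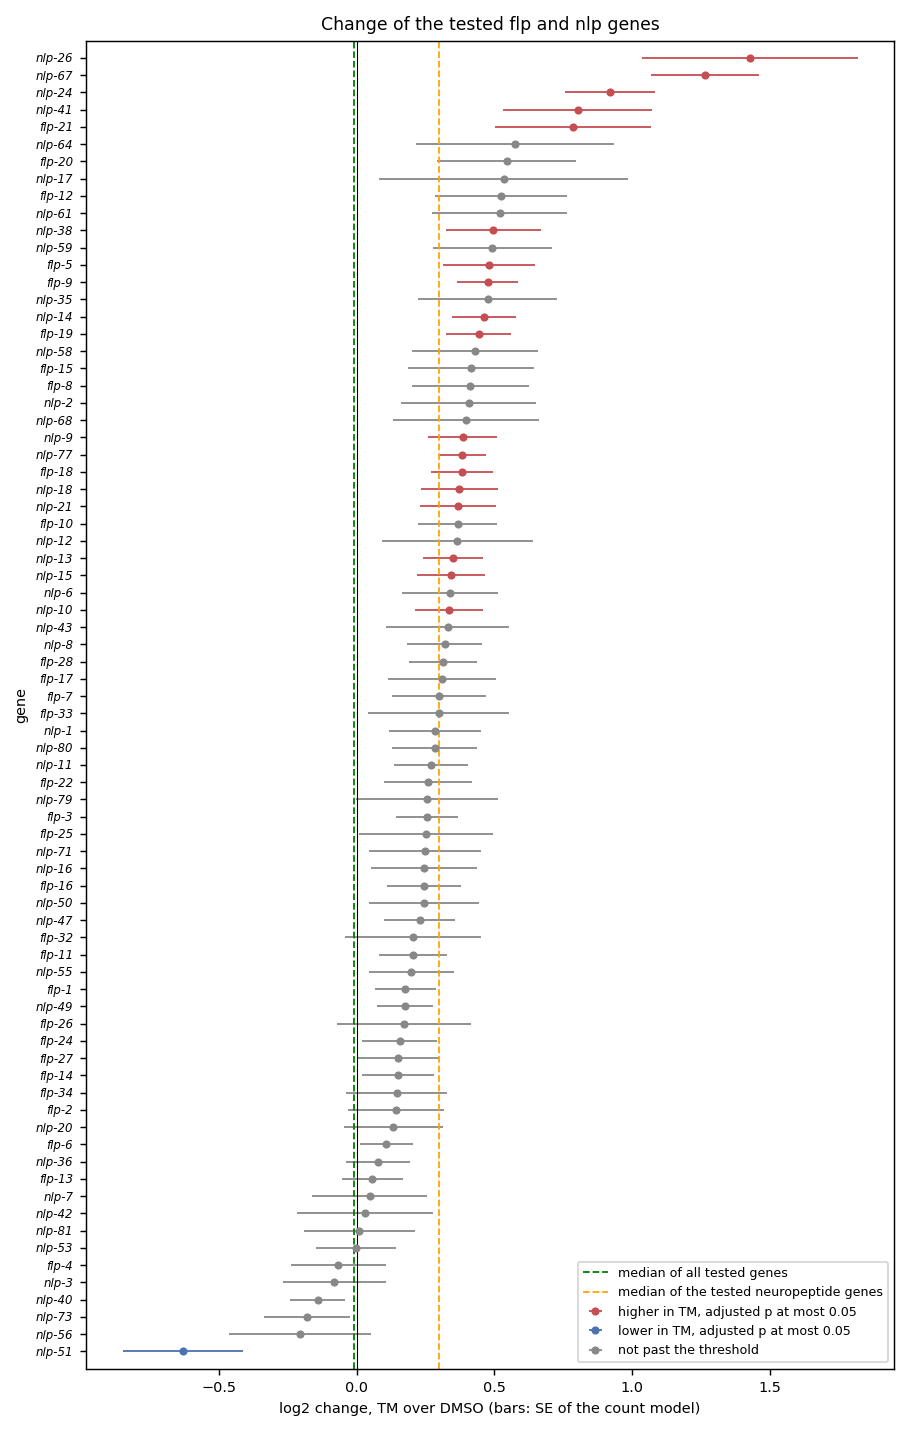
Log2 change of TM over DMSO for the 76 tested flp and nlp genes, ordered by size, with the SE of the count model as bars. Red points are the 18 genes called higher, the blue point is nlp-51, and the dashed lines mark the medians of all tested genes (-0.01) and of the neuropeptide genes (0.30).

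**Figure D2:**
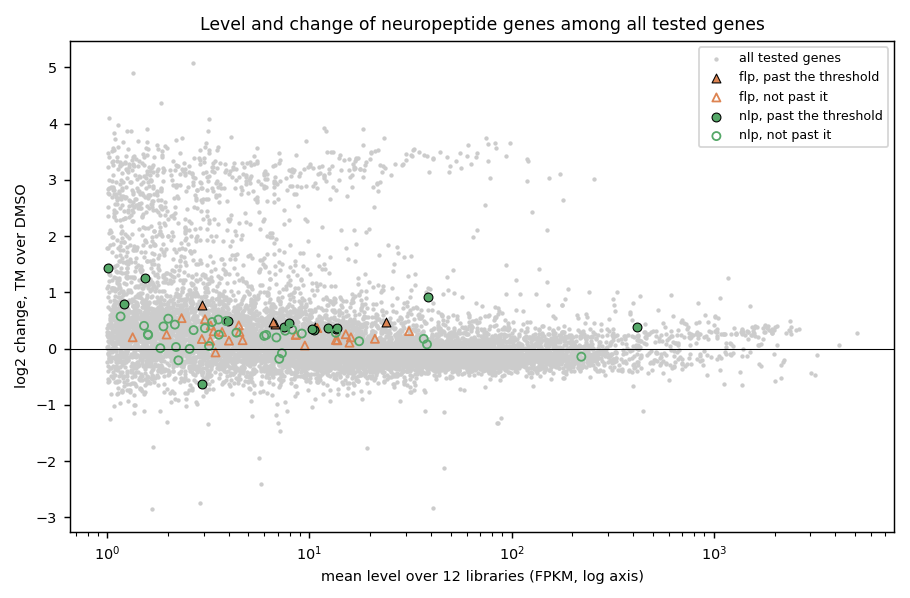
Mean level over 12 libraries (FPKM, log axis) against log2 change for all 11535 tested genes in grey, with flp genes as triangles and nlp genes as circles, filled where past the threshold. The neuropeptide genes lie mostly at low levels, and 2 of them, nlp-26 and nlp-67, have a change of at least 1. Both reached the 1 FPKM mean only through TM.

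Of 6 genes named for roles in sleep-like states or arousal, nlp-14 passed, and differences between these genes were not tested. The ALA neuron, which quiets animals after cell stress, releases peptides of flp-13, flp-24, nlp-8 and nlp-14, and the RIS neuron acts in sleep through flp-11. The gene nlp-14 had a lowest, median and highest level of 5.61, 6.56 and 7.83 FPKM in DMSO and of 7.97, 9.48 and 10.4 FPKM in TM. The groups did not overlap, and nlp-14 rose from 6.62 ± 0.871 to 9.32 ± 1.06 FPKM (0.46 ± 0.12 in log2, adjusted p = 0.00572). For nlp-8 the DMSO libraries ran from 5.13 to 8.94 FPKM and the TM libraries from 7.60 to 9.96 (0.32 ± 0.14 in log2, adjusted p = 0.0761), and the gene passed only in limma, without DMSO replicate 5, and without DMSO replicates 2 and 6 and TM replicate 5. The remaining ALA peptide genes stayed short of the threshold: flp-24 had 12.7 ± 2.37 and 14.4 ± 1.98 FPKM (0.16 ± 0.14 in log2, adjusted p = 0.380) and flp-13 had 9.21 ± 0.492 and 9.79 ± 1.30 FPKM (0.06 ± 0.11 in log2, adjusted p = 0.703). The RIS gene flp-11 had 14.8 ± 1.45 and 17.4 ± 2.81 FPKM (0.20 ± 0.12 in log2, adjusted p = 0.207). The arousal peptide gene nlp-49, a ligand of the receptor SEB-3, had 34.2 ± 2.43 and 39.4 ± 5.67 FPKM (0.18 ± 0.10 in log2, adjusted p = 0.186). It passed in the fit without the 3 libraries that stood apart.

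Of 4 genes named for roles in feeding, foraging and fat storage, nlp-24, flp-18 and flp-21 rose and flp-7 did not pass. The peptides of nlp-24 act on the opioid-like receptor NPR-17 and keep the pharynx pumping in starved animals. The gene (chromosome V, 11616376 to 11616828, plus strand in WBcel235) had a lowest, median and highest level of 21.8, 25.3 and 32.7 FPKM in DMSO and of 38.3, 46.6 and 67.3 FPKM in TM. Every TM library lay above every DMSO library, with TM replicate 5 highest at 67.3 and TM replicate 1 next at 62.8 FPKM. It rose from 26.3 ± 4.66 to 50.9 ± 11.5 FPKM (0.92 ± 0.16 in log2, adjusted p = 0.000460), and its adjusted p lay between 2.89e-07 and 0.00290 in all 22 alternatives. The globin gene glb-15 overlaps nlp-24 on the opposite strand.

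The foraging gene flp-18, whose peptides bind NPR-1, NPR-4 and NPR-5 and act on foraging and fat storage, had 7.83 to 11.2 FPKM in DMSO (median 8.70) and 10.8 to 13.96 FPKM in TM (median 11.8). The groups met at DMSO replicate 6, the highest control, and flp-18 rose from 9.14 ± 1.31 to 12.2 ± 1.24 FPKM (0.38 ± 0.11 in log2, adjusted p = 0.0139). The other NPR-1 ligand gene, flp-21, ran from 0.904 to 3.07 FPKM in DMSO (median 2.16) and from 2.47 to 5.28 FPKM in TM (median 3.70), with overlapping groups. It rose from 2.13 ± 0.808 to 3.75 ± 1.04 FPKM (0.78 ± 0.28 in log2, adjusted p = 0.0399). The call for flp-21 was lost without any 1 of DMSO replicates 1, 2 and 4 and TM replicates 1, 3 and 5, with adjusted p from 0.0626 to 0.0821 and changes from 0.62 to 0.78. It was also lost without DMSO replicates 2 and 6 and TM replicate 5 together (change 0.70, adjusted p = 0.0632). The gene flp-7, which acts from the ASI neurons on intestinal fat, had 3.99 ± 0.868 and 5.04 ± 0.810 FPKM (0.30 ± 0.17 in log2, adjusted p = 0.177), and it passed without DMSO replicate 6 and in the fit without the 3 libraries that stood apart.

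Of 7 genes named for roles in egg laying, movement or sensory neurons, 0 passed. The peptides of flp-10 and flp-17 inhibit egg laying through the receptor EGL-6. The gene flp-10 lay just above the threshold, with 7.38 to 10.9 FPKM in DMSO and 9.79 to 15.1 FPKM in TM (0.37 ± 0.14 in log2, adjusted p = 0.0541), and flp-17 had 2.98 ± 0.881 and 3.75 ± 0.801 FPKM (0.31 ± 0.19 in log2, adjusted p = 0.220). The gene nlp-3, which stimulates egg laying from the HSN neurons, had 7.44 ± 1.69 and 7.20 ± 1.37 FPKM (-0.08 ± 0.19 in log2, adjusted p = 0.752). The locomotion genes were flp-1, expressed in the AVK interneurons, with 19.6 ± 2.87 and 22.6 ± 2.55 FPKM (0.18 ± 0.11 in log2, adjusted p = 0.219), and the cholecystokinin-like nlp-12 of the stretch-sensing neuron DVA, with 2.63 ± 0.903 and 3.46 ± 0.991 FPKM (0.37 ± 0.28 in log2, adjusted p = 0.309). The touch neuron gene flp-20 had 1.88 ± 0.473 and 2.79 ± 0.942 FPKM (0.54 ± 0.25 in log2, adjusted p = 0.102), and nlp-1, made by the AWC olfactory neurons, had 3.88 ± 0.632 and 4.83 ± 0.915 FPKM (0.29 ± 0.17 in log2, adjusted p = 0.189). Of these 7, flp-10 passed in some alternatives, among them DESeq2 and limma, and flp-20 passed without TM replicate 6.

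Of 2 genes named for expression in the intestine or epidermis, nlp-26 rose and nlp-40 did not pass. The peptide of nlp-40 is released from the intestine and starts the expulsion step of defecation. In DMSO nlp-40 ran from 198 to 264 FPKM (median 229.9) and in TM from 189 to 260.3 FPKM (median 211), with the groups overlapping over most of their range (-0.14 ± 0.10 in log2, adjusted p = 0.278). It was lower past the threshold without TM replicate 5, which held its highest TM level, and with length correction. The epidermally expressed gene nlp-26 was near the detection limit, with a mean of 14.3 counts in DMSO and 40 in TM, and it overlaps a gene on the opposite strand. It had a lowest, median and highest level of 0.197, 0.454 and 1.08 FPKM in DMSO and of 0.849, 1.52 and 2.03 FPKM in TM. Its groups overlapped through DMSO replicate 3, and it rose from 0.522 ± 0.340 to 1.49 ± 0.567 FPKM (1.43 ± 0.39 in log2, adjusted p = 0.0100). As nlp-26 met the 1 FPKM condition through its TM level alone, the fit with no filter was read as well (change 1.41, adjusted p = 0.0328).

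Further genes that rose have peptides with less settled roles. The most abundant, nlp-77 (chromosome II, 7790591 to 7791375, plus strand), had a lowest, median and highest level of 318, 349.7 and 421 FPKM in DMSO and of 424, 467 and 544 FPKM in TM. DMSO replicate 5, at 421 FPKM, came close to TM replicate 2, at 424 FPKM, but the groups did not overlap. It rose from 360.01 ± 38.4 to 479 ± 45.5 FPKM (0.38 ± 0.086 in log2, adjusted p = 0.00276), with mean counts of 15186 and 20456. The glutamate receptor gene glr-4 overlaps it on the opposite strand. The smallest adjusted p belonged to nlp-67 (chromosome X, 16184369 to 16185722, plus strand), at 0.640, 0.912 and 1.09 FPKM (lowest, median and highest) in DMSO and 1.61, 2.17 and 2.67 FPKM in TM. It rose from 0.887 ± 0.205 to 2.18 ± 0.403 FPKM (1.26 ± 0.20 in log2, adjusted p = 0.000160) and overlaps no other gene in the table. Like nlp-26, nlp-67 met the 1 FPKM condition through its TM level alone. In the fit with no filter its call was kept (adjusted p = 0.0001995).

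Both flp-9 and flp-19, which encode RFamide peptides, rose without overlap of the groups. The gene flp-9 (chromosome IV, 12754558 to 12757570, minus strand) had 17.2, 20.3 and 22.2 FPKM as lowest, median and highest level in DMSO and 24.5, 27.7 and 36.7 FPKM in TM (0.48 ± 0.11 in log2, adjusted p = 0.00362). TM replicate 1 was its highest library. The gene flp-19 had 4.99, 5.81 and 6.40 FPKM in DMSO and 6.60, 7.99 and 9.29 FPKM in TM (0.44 ± 0.12 in log2, adjusted p = 0.00909), and the kinase gene abl-1 overlaps it on the opposite strand. The groups of nlp-13 met only through DMSO replicate 6, at 14.1 FPKM, with 10.6 to 11.7 FPKM in the other DMSO libraries and 14.1 to 18.8 FPKM in TM. It rose from 11.8 ± 1.21 to 15.4 ± 1.88 FPKM (0.35 ± 0.11 in log2, adjusted p = 0.0192). With the replicate number as a block nlp-13 lost its call (adjusted p = 0.0673). Its neighbour nlp-9, 14184 bases away with no gene between, rose from 6.39 ± 0.973 to 8.52 ± 1.07 FPKM (0.38 ± 0.12 in log2, adjusted p = 0.0239). Leaving out DMSO replicate 3, DMSO replicate 4 or TM replicate 1 ended that call (adjusted p 0.0550 to 0.0568, changes 0.33 to 0.35). The calls for nlp-67, nlp-24, nlp-77, flp-9, nlp-14, flp-19, nlp-26 and flp-18 were kept in all 22 alternatives run, and those 8 were the only ones of the 19.

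**Figure D3:**
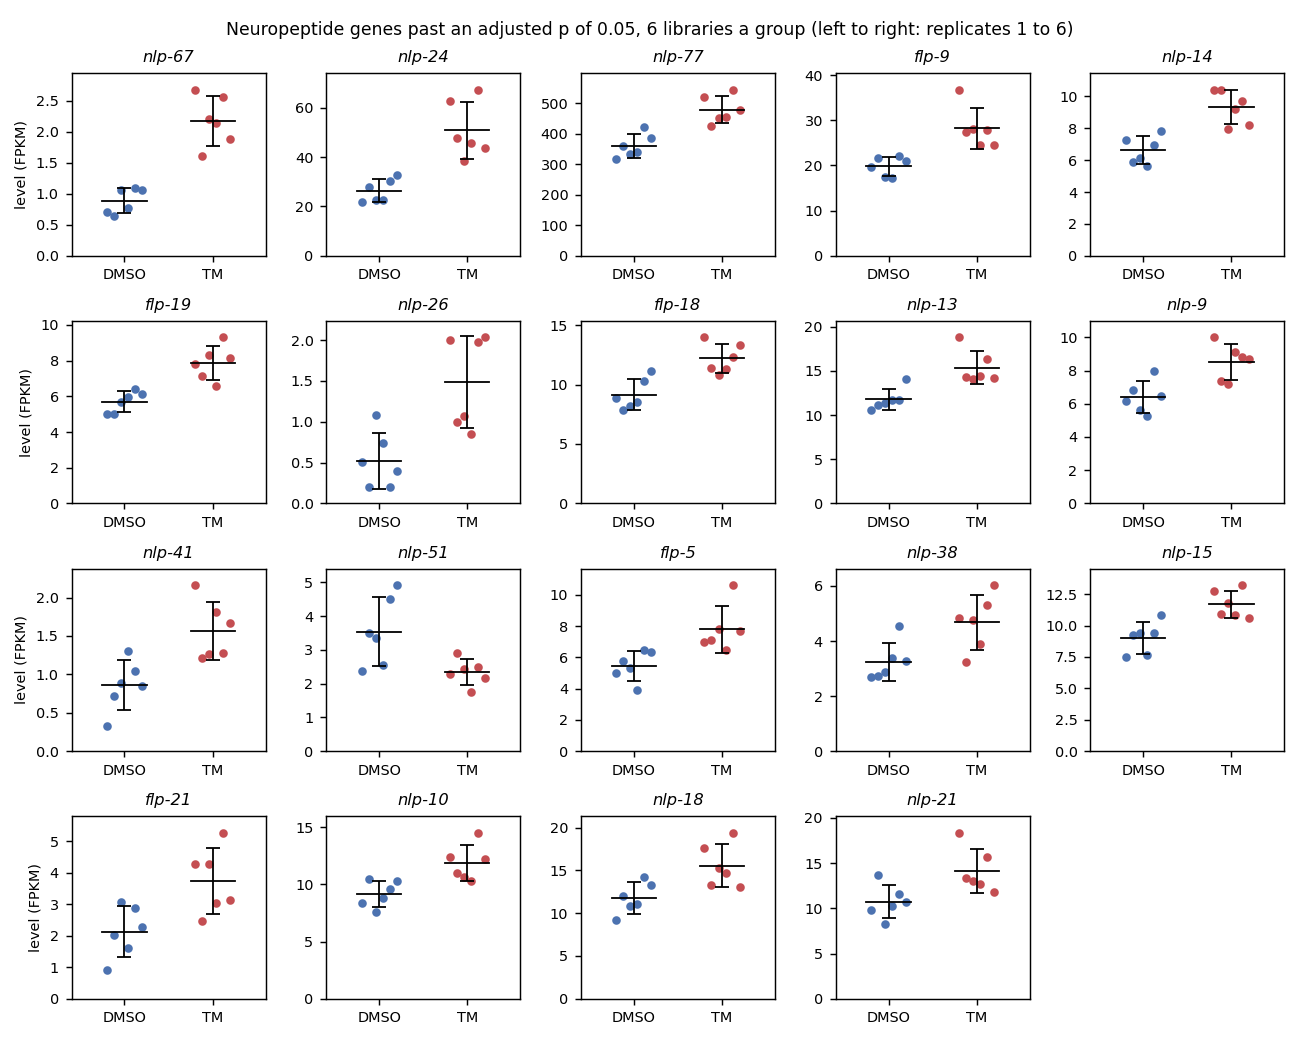
Level in FPKM in each of the 12 libraries for the 19 neuropeptide genes past the threshold, in order of p, with DMSO in blue, TM in red, and the mean and SD in black. Only nlp-51 lies lower in TM, and the 6 genes whose groups do not overlap are nlp-67, nlp-24, nlp-77, flp-9, nlp-14 and flp-19.

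The other calls lay nearer the threshold and had overlapping groups. The orcokinin-like gene nlp-15 rose from 8.998 ± 1.26 to 11.7 ± 1.1 FPKM (0.34 ± 0.12 in log2, adjusted p = 0.0378), and the call was lost without any 1 of DMSO replicates 1, 3, 4 and 5 and TM replicates 1, 3 and 5 (adjusted p 0.0546 to 0.0888, changes 0.29 to 0.36). The myoinhibitory peptide-like gene nlp-38 rose from 3.25 ± 0.689 to 4.68 ± 0.997 FPKM (0.50 ± 0.17 in log2, adjusted p = 0.0340), which was lost without any 1 of DMSO replicates 1 to 4 and TM replicates 1, 3, 5 and 6 (adjusted p 0.0566 to 0.0823, changes 0.42 to 0.50). The nlp-38 call was also lost without DMSO replicates 2 and 6 and TM replicate 5 together (change 0.43, adjusted p = 0.0767). The RFamide gene flp-5 rose from 5.46 ± 0.959 to 7.78 ± 1.47 FPKM (0.48 ± 0.17 in log2, adjusted p = 0.0336), which was lost without any 1 of DMSO replicates 1, 3 and 4 and TM replicates 3, 5 and 6 (adjusted p 0.0507 to 0.0751, changes 0.35 to 0.49).

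The genes nlp-10, nlp-18 and nlp-21 passed narrowly. Their levels went from 9.20 ± 1.13 to 11.9 ± 1.56 FPKM for nlp-10 (0.34 ± 0.12 in log2, adjusted p = 0.0452), from 11.8 ± 1.82 to 15.6 ± 2.49 FPKM for nlp-18 (0.37 ± 0.14 in log2, adjusted p = 0.0460) and from 10.7 ± 1.82 to 14.1 ± 2.43 FPKM for nlp-21 (0.37 ± 0.14 in log2, adjusted p = 0.0476). Leaving out 1 library ended the call of nlp-10 in 8 of 12 cases (DMSO replicates 1, 3, 4 and 5, TM replicates 1, 2, 5 and 6; adjusted p 0.0505 to 0.1001, changes 0.25 to 0.36). It ended that of nlp-18 in 8 (DMSO replicates 1 to 4, TM replicates 1, 3, 4 and 5; adjusted p 0.0609 to 0.105, changes 0.28 to 0.39). It ended that of nlp-21 in 9 (all libraries but DMSO replicate 2 and TM replicates 4 and 6; adjusted p 0.0543 to 0.116, changes 0.29 to 0.39). Another gene overlaps nlp-21 on the opposite strand. The scarce gene nlp-41, antisense to mog-4, rose from 0.856 ± 0.325 to 1.57 ± 0.378 FPKM on mean counts of 23.2 and 41.7 (0.80 ± 0.27 in log2, adjusted p = 0.0297). Its call was lost without DMSO replicate 2 or any 1 of TM replicates 1, 4 and 6 (adjusted p 0.0521 to 0.0723, changes 0.70 to 0.79), and without DMSO replicates 2 and 6 and TM replicate 5 together (change 0.83, adjusted p = 0.0515). As nlp-41 met the 1 FPKM condition through its TM level alone, the other filters were read as well, and the call was lost with 10 mean counts (adjusted p = 0.0804) and with no filter (adjusted p = 0.108).

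The only fall was that of nlp-51 (chromosome II, 11319223 to 11319691, minus strand). It had a lowest, median and highest level of 2.37, 3.43 and 4.92 FPKM in DMSO and of 1.75, 2.35 and 2.92 FPKM in TM. DMSO replicates 5 and 6 were its highest libraries, at 4.52 and 4.92 FPKM, and the groups overlapped between 2.37 and 2.92 FPKM. The gene fell by 0.63 ± 0.22 on the log2 scale (adjusted p = 0.0333), on mean counts of 101 and 67.3. The call was lost without any 1 of DMSO replicates 2, 3, 5 and 6 and TM replicates 1, 3, 4 and 6 (adjusted p 0.0501 to 0.0751, changes -0.64 to -0.49). The nlp-51 call was also lost without DMSO replicates 2 and 6 and TM replicate 5 together (change -0.47, adjusted p = 0.136). The remaining abundant genes did not pass: flp-28 had 27.4 ± 3.56 and 34.8 ± 5.35 FPKM (0.31 ± 0.12 in log2, adjusted p = 0.0544), nlp-36 had 36.7 ± 4.85 and 39.7 ± 4.68 FPKM (0.08 ± 0.12 in log2, adjusted p = 0.615) and nlp-20 had 16.7 ± 2.65 and 18.6 ± 5.26 FPKM (0.13 ± 0.18 in log2, adjusted p = 0.575). On the X chromosome flp-28, flp-3 and flp-2 lie in a row on the minus strand, with gaps of 3979 and 1465 bases and no gene between them, and their changes were 0.31 ± 0.12, 0.25 ± 0.11 and 0.14 ± 0.18.

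The 20 genes below the filter were all nlp genes, with means from 0.0461 to 0.946 FPKM, and 16 of them had a higher mean in TM. The largest difference between group means in FPKM was that of nlp-4, at 0.527, 0.236, 0.143, 0.357, 0.502 and 0 FPKM in DMSO replicates 1 to 6 and at 1.07 to 2.06 FPKM in the TM libraries (median 1.63). Its groups did not overlap, and with a filter of 10 mean counts instead nlp-4 passed (2.33 ± 0.51 in log2, adjusted p = 0.00231). The epidermal gene nlp-25, 5041 bases from nlp-26, had counts in 1 of the 6 DMSO libraries and 5 of the 6 TM libraries, at no more than 0.160 FPKM, and without a filter it had a larger estimate than nlp-4 with a wide error (3.60 ± 1.29 against 2.34 ± 0.51 in log2) and lay just above the threshold (adjusted p = 0.0537). Both nlp-4 and nlp-25 were singled out after their values had been seen. Of the remaining 18, none passed without a filter.

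Read library by library, the median over the 76 tested genes of log2 CPM (counts scaled to library depth) minus the DMSO mean was -0.22 (replicate 1) to 0.20 (replicate 6) among the DMSO libraries, and 0.16 (replicate 6) to 0.55 (replicate 5) among those of TM. The groups thus overlapped: DMSO replicate 6, at 0.20, lay above TM replicate 6, at 0.1635, and DMSO replicate 5, at 0.155, just below it. DMSO replicate 1 held the lowest level of its group for 33 of the 76 genes and DMSO replicate 4 for 21, while DMSO replicate 5 held the highest for 32 and DMSO replicate 6 for 25. In TM, replicate 5 held the highest level for 33 genes and replicate 1 for 26. The summed level of all 96 genes was 1129 ± 115 FPKM in DMSO (988 to 1266) and 1370.1 ± 133 FPKM in TM (1270.1 to 1590.0), so that DMSO replicate 5, at 1266 FPKM, came close to TM replicate 3, at 1270.1 FPKM. Without nlp-77 and nlp-40 the sums were 539 ± 59.6 and 678 ± 77.3 FPKM. In whole animals, fewer cells of a type and less RNA per cell cannot be told apart.

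**Figure D4:**
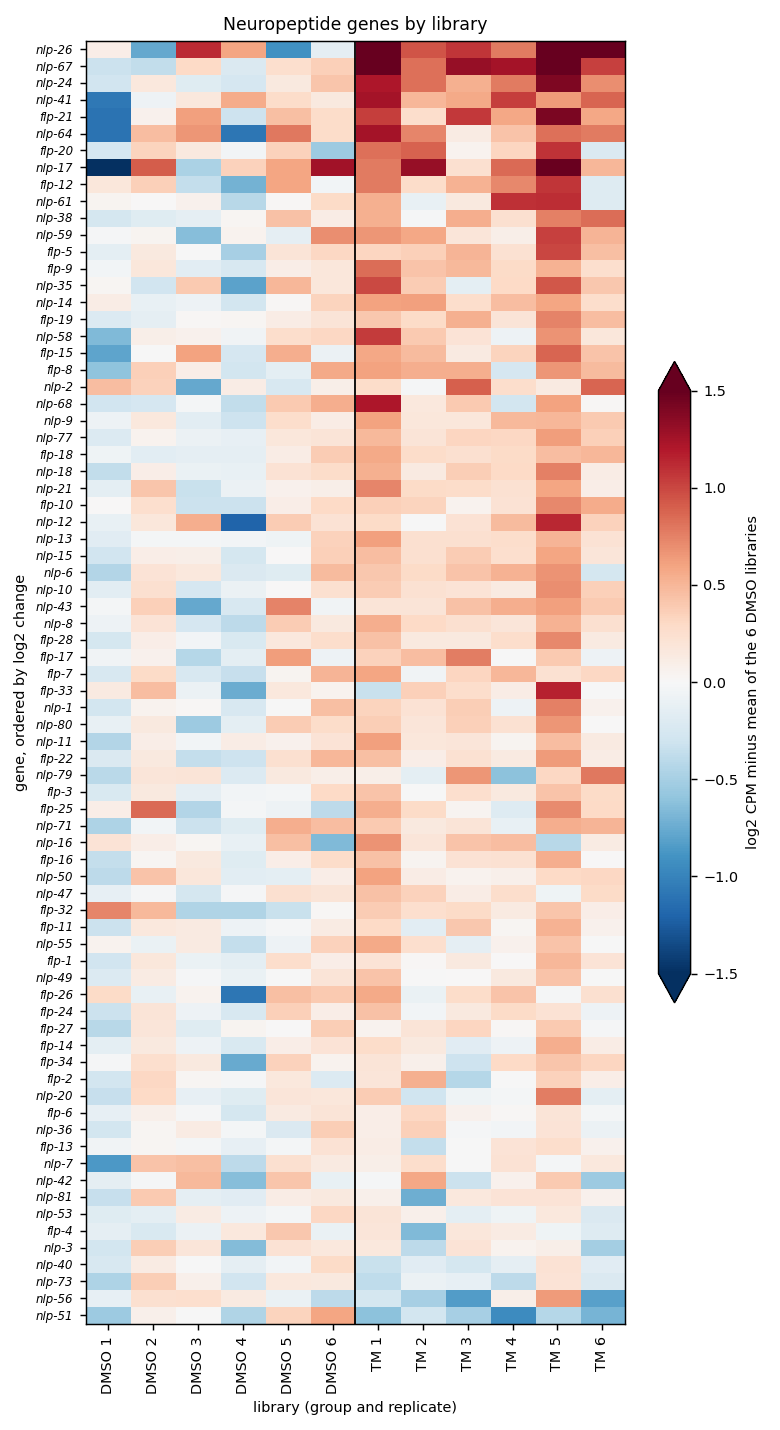
Log2 CPM minus the mean of the 6 DMSO libraries for the 76 tested neuropeptide genes (rows, ordered by log2 change) in the 12 libraries (columns), red for higher and blue for lower. The columns of TM replicates 1 and 5 are the reddest and those of DMSO replicates 1 and 4 the bluest, and the median over genes runs from -0.22 to 0.55.

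Transcript length moved with these library differences. The slope of all tested genes' deviations on log2 exon length was -0.32 in TM replicate 5, -0.16 in DMSO replicate 6, between -0.12 and -0.05 for the remaining TM libraries and between -0.03 and 0.10 for the remaining controls, which means that short transcripts read higher in TM replicate 5 than elsewhere. After a length correction the neuropeptide median was 0.25 in TM replicate 5, against 0.55 before, and lay between 0.14 and 0.39 for the remaining TM libraries and between -0.14 and 0.14 for DMSO. Under that correction 20 of 76 neuropeptide genes rose, all 18 of the main call with flp-10 and flp-28 added, and 2 fell, nlp-51 and nlp-40. Over all tested genes 25.1% were then higher and 18% lower. The median change of the neuropeptide genes was 0.25. The part of RNA quality or library preparation in this slope was not tested.

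**Figure D5:**
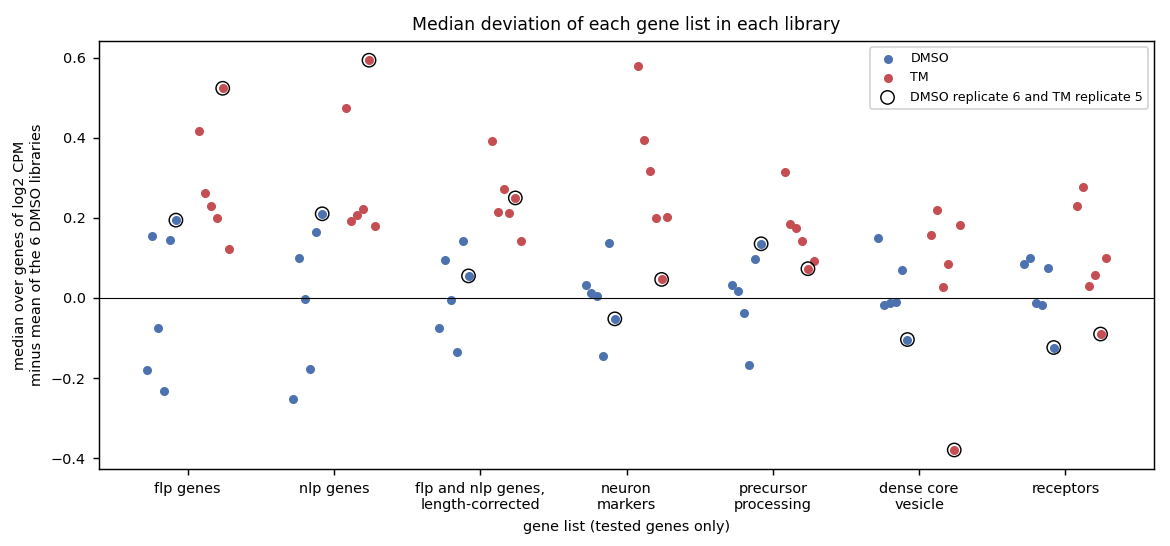
Median over the tested genes of each list of log2 CPM minus the mean of the 6 DMSO libraries, 1 point per library, DMSO in blue and TM in red, with DMSO replicate 6 and TM replicate 5 ringed. TM replicate 5 is the highest library for flp and nlp genes, at 0.52 and 0.59, and low for neuron markers (0.05) and dense core vesicle genes (-0.38).

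Of 11 genes that process and amidate precursors, all tested, 4 rose and 0 fell, or 36.4% higher where 23.7% of all tested genes were. Estimates above 0 were found for 8 of the 11, and the median change was 0.14. The convertase gene egl-3 had 18.3 to 22.9 FPKM in DMSO and 22.8 to 31.8 FPKM in TM, and went from 20.6 ± 1.79 to 26.05 ± 3.13 FPKM (0.31 ± 0.085 in log2, adjusted p = 0.0102). The carboxypeptidase gene egl-21 rose without overlap of the groups, from 28.3 ± 2.25 to 34.5 ± 2.86 FPKM (0.25 ± 0.083 in log2, adjusted p = 0.0256). Its call was lost without DMSO replicate 4 or TM replicates 1 or 3 (adjusted p = 0.0615, 0.0544 and 0.0508, changes 0.20, 0.24 and 0.24). It was also lost with a filter of 10 mean counts (adjusted p = 0.0717, change 0.21). The convertase gene aex-5, known from defecation (0.21 ± 0.074 in log2, adjusted p = 0.0329), lost its call without any 1 of 8 libraries (DMSO replicates 1 to 4, TM replicates 1, 2, 3 and 6), and the amidating lyase gene pgal-1 (0.24 ± 0.092 in log2, adjusted p = 0.0473) without any 1 of 9 (DMSO replicates 1 to 4, TM replicates 1, 2, 3, 4 and 6). Their changes there were 0.19 to 0.22 and 0.17 to 0.26, and their adjusted p reached 0.0744 and 0.113. Both calls were also lost with a filter of 10 mean counts, with no filter and with the replicate number as a block. That of pgal-1 was lost with median-ratio scaling too. The genes of the copper-dependent amidating step did not pass: pamn-1 had 8.55 ± 2.25 and 9.17 ± 2.83 FPKM (0.08 ± 0.23 in log2, adjusted p = 0.810) and pghm-1 had 16.1 ± 1.16 and 18.1 ± 2.32 FPKM (0.14 ± 0.091 in log2, adjusted p = 0.245). The convertase chaperone gene sbt-1 went from 32.1 ± 3.47 to 39.99 ± 6.89 FPKM without passing (0.28 ± 0.11 in log2, adjusted p = 0.0576).

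Of 15 dense core vesicle genes 14 were tested, 1 rose (7.14%) and 2 fell (14.3%), against 23.7% and 16% of all tested genes, with a median change of 0.09. The vesicle membrane gene ida-1 rose from 14.3 ± 1.62 to 18.7 ± 2.89 FPKM (0.35 ± 0.097 in log2, adjusted p = 0.0102). The trafficking genes eipr-1, from 29.9 ± 1.33 to 25.7 ± 2.06 FPKM (-0.25 ± 0.071 in log2, adjusted p = 0.0119), and rab-10, from 219 ± 12.1 to 195 ± 22.4 FPKM (-0.20 ± 0.067 in log2, adjusted p = 0.0288), fell. Both are expressed well beyond neurons. The rab-10 call was lost without DMSO replicate 3 (adjusted p = 0.0531, change -0.20) or TM replicate 2 (adjusted p = 0.0528, change -0.19). It was also lost with total-count scaling, limma, the replicate number as a block and length correction (adjusted p 0.0641 to 0.112, changes -0.23 to -0.16). In TM replicate 5 the median of the list was -0.38, against 0.03 to 0.22 in the other TM libraries.

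Receptor genes were mostly too scarce to test: of 114 listed, 98 were in the table and 22 were tested. Of these 2 rose (9.09%) and 3 fell (13.6%), against the same 23.7% and 16%, with a median change of 0.09. The gene frpr-1, of the FMRFamide peptide receptor family, rose from 1.27 ± 0.234 to 3.22 ± 0.640 FPKM without overlap of the groups (1.30 ± 0.17 in log2, adjusted p = 3.36e-05). The gene trhr-1, receptor for the thyrotropin-releasing hormone-like peptide that promotes growth, rose from 3.71 ± 0.197 to 7.41 ± 1.73 FPKM, from 3.51 to 3.98 in the DMSO and 4.24 to 8.77 in the TM libraries (0.96 ± 0.15 in log2, adjusted p = 0.000134). The gene of its ligand, trh-1, had 0.970 ± 0.448 and 1.17 ± 0.556 FPKM (0.23 ± 0.38 in log2, adjusted p = 0.650). The genes dmsr-3 (-0.76 ± 0.21 in log2, adjusted p = 0.0119), dmsr-16 (-0.77 ± 0.25 in log2, adjusted p = 0.0242) and lat-1 (-0.26 ± 0.086 in log2, adjusted p = 0.0292) fell. The dmsr-16 call was lost without DMSO replicate 2 (adjusted p = 0.0599, change -0.63) or TM replicate 1 (adjusted p = 0.0549, change -0.70), and without DMSO replicates 2 and 6 and TM replicate 5 together (adjusted p = 0.114, change -0.50). The lat-1 call was lost without DMSO replicate 1 or 3 or TM replicate 1 or 6 (adjusted p 0.0518 to 0.0583, changes -0.25 to -0.23). It was also lost with total-count scaling and with limma (adjusted p 0.0834 to 0.0955, changes -0.23 to -0.22). The gene lat-1 encodes latrophilin, an adhesion receptor.

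Among receptor genes for the flp and nlp peptides described above, npr-5, npr-17, egl-6 and dmsr-1 were tested and did not pass. The gene npr-5, for FLP-18 peptides, had 2.95 ± 0.390 and 3.78 ± 0.568 FPKM (0.32 ± 0.14 in log2, adjusted p = 0.0726). The gene npr-17, for NLP-24, had 1.19 ± 0.195 and 1.11 ± 0.503 FPKM (-0.13 ± 0.28 in log2, adjusted p = 0.725). The gene egl-6 had 4.95 ± 0.729 and 4.32 ± 0.490 FPKM (-0.23 ± 0.12 in log2, adjusted p = 0.138), and dmsr-1, for FLP-13, had 1.77 ± 0.315 and 1.86 ± 0.505 FPKM (0.04 ± 0.19 in log2, adjusted p = 0.879). The genes npr-1, npr-4, seb-3 and aex-2 lay below the filter and were not tested.

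Among 15 neuropeptide genes outside the naming rule that were in the table, 11 were tested, 4 rose (36.4%) and 0 fell. Over all tested genes 23.7% were called higher and 16% lower. The genes nlp-29, nlp-31 and nlp-33, which rose, belong to the range nlp-27 to nlp-34 left out by the rule, with changes of 1.12 ± 0.20, 1.24 ± 0.21 and 1.57 ± 0.22. The gene snet-1, which encodes a modulator of olfactory plasticity, rose from 11.2 ± 0.830 to 14.2 ± 1.48 FPKM (0.31 ± 0.096 in log2, adjusted p = 0.0198). The PDF-type peptide genes pdf-1 (0.18 ± 0.089 in log2, adjusted p = 0.118) and pdf-2 (0.06 ± 0.14 in log2, adjusted p = 0.756) did not pass. Of 10 tested genes of neprilysin-like and other peptidases or their homologues, 6 rose (60%) and 0 fell, against the same 23.7% and 16%. The median change of the 10 was 0.37. Those that rose were nep-22 (0.89 ± 0.13), nep-26 (0.75 ± 0.18), nep-2 (0.44 ± 0.11), nep-11 (0.41 ± 0.13), nep-17 (0.34 ± 0.075) and acn-1 (1.58 ± 0.11). The product of acn-1 is an angiotensin-converting enzyme homologue required for moulting. The nep-11 call was lost without DMSO replicate 3 (adjusted p = 0.0518, change 0.34) or TM replicate 1 (adjusted p = 0.0551, change 0.35).

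Markers of neurons in general stood beside these values. Of 22 fixed neuron markers 17 were tested. Of these 6 rose (35.3%) and 1, unc-119, fell (5.88%), against 23.7% and 16% of all tested genes. Their median change was 0.31, close to the 0.30 of the neuropeptide genes. The list shares egl-3, egl-21, sbt-1, ida-1, ric-19, unc-13 and unc-31 with the lists above. Of the shared genes, egl-3, egl-21 and ida-1 were among the 6 that rose. The median of the marker list in each library ran from -0.15 to 0.14 in DMSO and from 0.05 to 0.58 in TM. TM replicate 1 was highest and TM replicate 5 lowest for the markers, whereas the neuropeptide genes were highest in TM replicate 5. With length correction the neuropeptide median was instead highest in TM replicate 1, at 0.39, and was 0.25 in TM replicate 5. The marker medians were not length-corrected. The summed level of all 22 markers was 427 to 491 FPKM in DMSO and 447 to 527 FPKM in TM, and none was at 0 in any library. The summed level of the 13 epidermis and seam markers was 131 to 143 FPKM in DMSO and 160.1 to 179 FPKM in TM. The part of either list in the neuropeptide values was not tested.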

How the data were processed

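Poly(A) RNA of 6 DMSO and 6 TM libraries was sequenced with a strand-preserving kit. Read counts per gene and FPKM values were deposited by the authors in 1 table. Per the submitters' processing notes, cutadapt 1.9, FastQC, HISAT2 2.2.1 and StringTie were used; not given in the sources used here were the counting tool, its handling of strand and of multi-mapping reads, and the genome build. Of the gene IDs, 24232 matched the RefSeq WBcel235 table, with 97.0% of starts and 95.9% of ends equal, and WBcel235 coordinates are printed.

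The deposited counts were tested for the 11535 genes averaging 1 FPKM or more with edgeR 4.0.16 in R 4.3.3 (TMM scaling, robust quasi-likelihood test, TM against DMSO, no covariate), with Benjamini-Hochberg adjustment over all of them; 12703 genes were not tested. The SE is the absolute log2 change divided by the square root of F. Alternatives were a filter of 10 mean counts, no filter, median-ratio and total-count scaling, DESeq2 1.42.0, limma 3.58.1 on log2(FPKM + 1) and log2(FPKM + 0.1), a replicate block, a correction for exon length, each library left out, and 3 libraries left out together. The procedure was tested on simulated data. Depth was 61432401 to 67068328 counts per library. No libraries were duplicates.

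The text names every member past the threshold, the 10 most abundant, members with known roles, the 2 just above the threshold, and called genes of related lists. Members and lists were chosen with earlier results of these data known. One gene was taken off the list of other neuropeptides after its values were seen, because its symbol stands for another protein here.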

Additional observations from a re-analysis of the deposited data

Results flagged for a closer look

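In 7 of the 72 groups of 6 libraries examined, 2 for each of 36 named genes, the highest library lay far from the others, with a gap above Dixon's 95% critical value for the group's range. Chance flags about 1 in 20 groups. In 3 of the 7 the library was TM replicate 5: flp-5 stood at 10.6 FPKM there, with 6.46 to 7.80 in the other TM libraries, nlp-12 at 5.36 FPKM, with 2.53 to 3.53, and nlp-40 at 260.3 FPKM, with 189 to 214. DMSO replicate 5 held flp-17 at 4.68 FPKM, with 2.11 to 2.93 in the other DMSO libraries, and nlp-38 at 4.54 FPKM, with 2.70 to 3.37. DMSO replicate 6 held nlp-13 at 14.1 FPKM, with 10.6 to 11.7 in the others. TM replicate 1 held flp-9 at 36.7 FPKM, with 24.5 to 28.1 in the others.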

How the results depend on the processing

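The median change of the tested neuropeptide genes stayed between 0.24 and 0.35 in all 22 alternatives, and none of the 19 calls reversed. The count of genes that rose was 18. It was 11 with a filter of 10 mean counts, 10 to 24 with 1 library left out, and 25 without DMSO replicates 2 and 6 and TM replicate 5. Over all tested genes the share called higher was 23.7%. It was 23.3% with that filter, 21.3% to 25.6% with 1 library left out, and 30.5% without those 3 libraries. The count that fell was 1; it was 2 with length correction, 0 without those 3, and 0 to 2 with 1 library left out. Without those 3 libraries 2832 of all tested genes fell, against 1851 in all and 1517 to 2394 with 1 library left out. Estimates near 0 changed sign for nlp-36 with length correction (-0.012), nlp-20 without TM replicate 5 (-0.034; up to 0.21 with another library left out) and nlp-3 without the 3 libraries (0.031; -0.19 to -0.0021 with 1 left out); the cause was not tested.

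With the replicate number as a block, 11 neuropeptide genes rose and 0 fell, where 2328 and 1305 of 11535 tested genes did. The calls of flp-21, nlp-9, nlp-10, nlp-13, nlp-15, nlp-18, nlp-21, nlp-41 and nlp-51 were lost there, and flp-10 was added. Of the called genes in the related lists, aex-5, pgal-1, rab-10, dmsr-16, snet-1 and nep-11 lost their calls too. The deviations of same-numbered libraries had correlations of -0.38 to 0.26. Of the 12 libraries 3 (DMSO replicates 3 and 4, TM replicate 4) correlated best with their own number. Labels do not say whether a shared number marks a common batch, and these correlations cannot decide it. The scarcest called gene, nlp-26, rested on a mean of 14.3 counts in DMSO; the effect of depth was not tested.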
